A study of Mus musculus with 12 samples.

Results

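A set of 9 genes of retinoic acid metabolism and signalling were followed through bulk RNA-seq of adult mouse trigeminal ganglia, the clusters of cell bodies that carry touch, temperature and pain from the face. They are Aldh1a1, Aldh1a2, Aldh1a3 and Rdh10, which act in synthesis, Cyp26b1, which acts in breakdown, and the receptor genes Rara, Rarb, Rarg and Rxrg, or 9 of the 55416 gene identifiers in each file. They were picked by name, with their counts in all 12 libraries already known and with Aldh1a3 and Cyp26b1 set against Aldh1a2 and the receptors, so their difference between knockout and control is given here as a description. All 9 passed the filter on low counts that left 16637 genes for testing.

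The series asks what follows when Prdm12, a gene for a zinc finger regulator needed to form pain-sensing neurons, is deleted in adult animals. All 12 libraries came from adult C57Bl6 mice, taken 1 month after injection. The 6 inducible knockouts (iKO) carried Rosa26Cre ERT2 and the floxed genotype Fl/Fl, and were given tamoxifen (spelled tamoxyfene in the labels). Control 1 was Rosa26Cre ERT2; Fl/+, controls 2 and 3 were +/+; Fl/+ and control 4 was Rosa26Cre ERT2; +/+, all with tamoxifen. Controls 5 and 6 had the iKO genotype and were given corn oil. Replicates 1 to 4 therefore compare genotypes under tamoxifen, and replicates 5 and 6 compare tamoxifen with corn oil in males of a single genotype. The Rosa26 locus is active in most cell types, so the deletion is not limited to neurons. Of the iKO libraries 3 were labelled female and 3 male, and of the controls 2 female and 4 male. The labels number the libraries without saying whether each is 1 animal, so p-values measure the spread between these libraries, which may be technical.

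Retinoic acid is a vitamin A derivative that enters the nucleus and binds retinoic acid receptors (RARs), which pair with retinoid X receptors (RXRs) on DNA. Retinol is oxidised to retinaldehyde by enzymes such as Rdh10, retinaldehyde is oxidised to retinoic acid by the Aldh1a enzymes, and Cyp26 enzymes degrade retinoic acid, so that cells which make it and cells which clear it set where it acts. In the nervous system it patterns the embryonic hindbrain and promotes neurite growth, and the membranes around the brain, the meninges, are a known source of it through Aldh1a2.

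Total counts per library ran from 13207526 to 24178970. Levels are given as CPM, read counts scaled for library depth by the TMM method, and differences as log2 fold changes of iKO against control from edgeR's quasi-likelihood test with sex as a covariate. Prdm12 itself had means of 106 ± 28.4 CPM (control) and 16.8 ± 1.97 CPM (iKO; mean ± SD, n = 6 each). Marker genes of sensory neurons summed to between 12869 and 16128 CPM in controls and between 13470 and 16319 CPM in iKO. Some libraries held RNA of neighbouring tissues. Pituitary genes summed to 2810 CPM in iKO 3 and to 8.9 to 688 CPM in the others, and skeletal muscle genes to 774 CPM in iKO 5 and 24.2 to 207 CPM in the others. Genes of airway epithelium, a list of 12 written after these values had been seen, summed to 1162 CPM in control 3 and 1330 CPM in iKO 6, against 30.5 to 622 CPM elsewhere.

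Per length of exon, control ganglia held most transcript of Aldh1a1 and least of Rarb. Aldh1a1 measured 12.5 ± 5.78 CPM per kilobase (SD, n = 6), Aldh1a2 8.2 ± 2.19, Rarg 8.04 ± 0.705 and Rxrg 6.87 ± 0.699 in the same unit. The ranges of neighbouring genes among these 4 overlapped over the 6 control libraries. Aldh1a3 followed at 3.03 ± 0.338 CPM per kilobase, apart from Rxrg above it and Rdh10 below it at 2.34 ± 0.201. Rara, at 2.1 ± 0.286, overlapped Rdh10. Cyp26b1, at 1.2 ± 0.206, lay below every Rara value, and Rarb, at 0.572 ± 0.0882 CPM per kilobase, lay below every Cyp26b1 value.

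**Figure D1:**
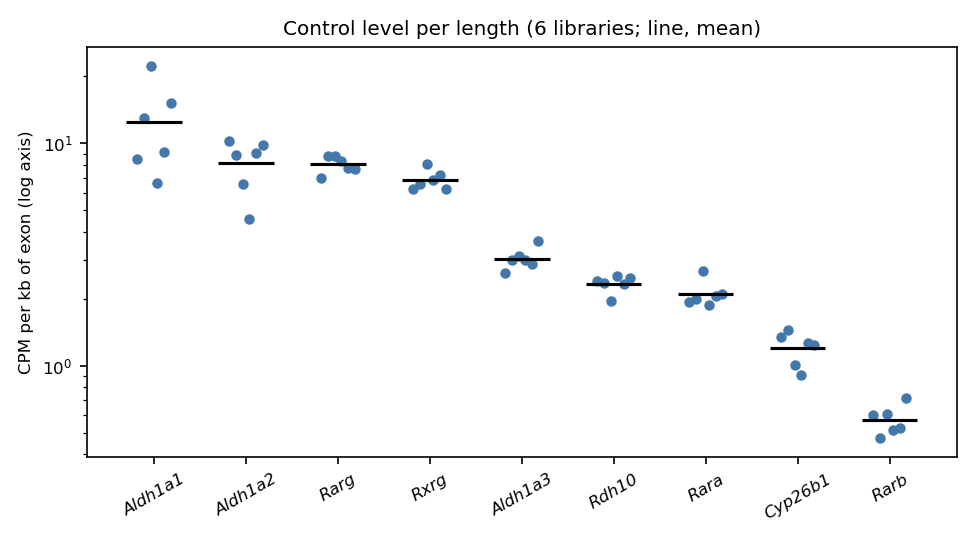
Level of the 9 genes in the 6 control libraries, in CPM per kilobase of annotated exon on a log axis. Each point is 1 library and each line the mean, and the means fall from 12.5 for Aldh1a1 to 0.572 for Rarb.

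Aldh1a3 encodes a retinaldehyde dehydrogenase, an enzyme of the last step of retinoic acid synthesis. Its level in the controls was 12.1, 13.7, 14.3, 13.8, 13.2 and 16.7 CPM in libraries 1 to 6. In iKO libraries 1 to 6 it was 23.0, 28.5, 25.2, 22.2, 21.6 and 20.4 CPM. Every iKO library lay above every control library, 20.4 CPM being the lowest iKO and 16.7 CPM the highest control value. The means were 14.0 ± 1.56 and 23.5 ± 2.95 CPM, which puts iKO at 168% of control. The log2 fold change was 0.73 ± 0.0968 (SE), with a 95% interval from 0.52 to 0.94.

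Cyp26b1 encodes a cytochrome P450 that inactivates retinoic acid by oxidation. Control libraries 1 to 6 measured 7.22, 7.75, 5.37, 4.86, 6.74 and 6.60 CPM. The iKO libraries 1 to 6 measured 11.9, 9.56, 13.8, 11.99, 8.78 and 8.18 CPM. Here too no iKO value reached down to a control value, though iKO 6, at 8.18 CPM, came close to control 2, at 7.75 CPM. The means were 6.42 ± 1.1 and 10.7 ± 2.2 CPM, iKO being at 167% of control, with a log2 fold change of 0.68 ± 0.13 (SE; 95% interval 0.40 to 0.97). The gene rests on 81 to 327 reads per library.

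These 2 were the members past the threshold of the test over all genes (Benjamini-Hochberg adjusted p under 0.05), which 63 of 16637 genes passed, or 0.379%, with 0.174% higher and 0.204% lower in iKO. They were also the 2 members whose iKO and control values did not overlap, as in 1.2% of all genes tested. Both counts follow from how the genes were picked and nothing is read from them. Aldh1a3 was past the threshold whichever single library was left out, and was not with a replicate block (log2 fold change 0.73). When single libraries were left out, Cyp26b1 was past it only without control 6 or without iKO 2, and its log2 fold change ran from 0.59 to 0.74 over the 12 fits that left out 1 library. Nor was Cyp26b1 past it with the replicate block (0.60), in tamoxifen-injected libraries alone (0.78) or with no sex covariate (0.74).

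**Figure D2:**
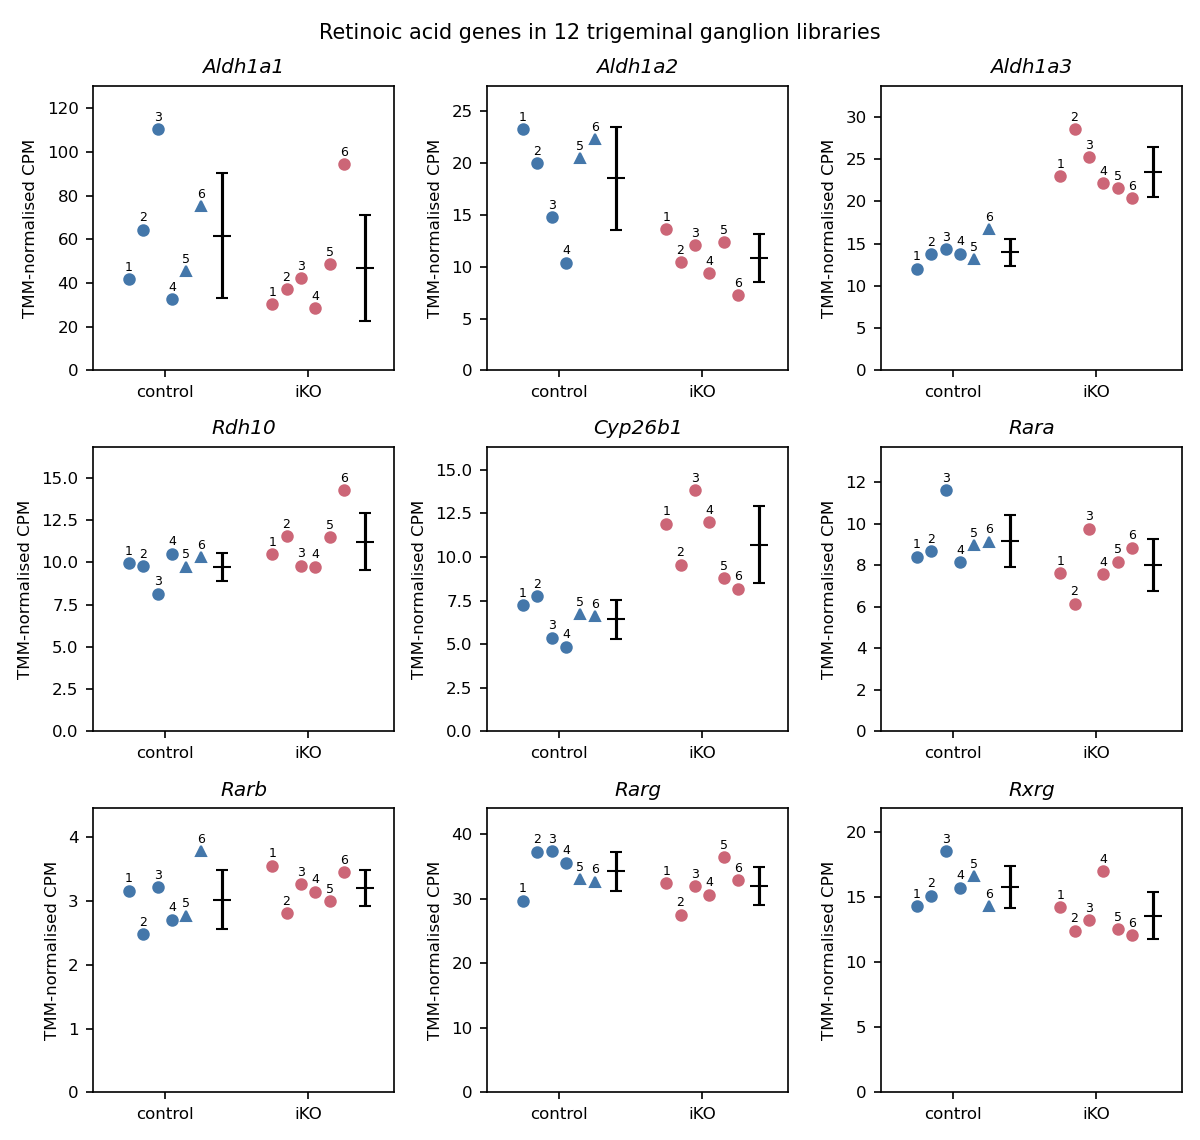
TMM-normalised CPM of the 9 genes, 1 panel each, in 6 control and 6 iKO libraries. Points are libraries numbered by replicate, triangles mark corn oil, and the bar is the mean with its SD. Aldh1a3 and Cyp26b1 separate the groups. The Aldh1a2 value of control 4, 10.4 CPM, lies inside the iKO range and that of control 3, 14.8 CPM, near it.

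Aldh1a2, which encodes the retinaldehyde dehydrogenase of the meninges and of much of the embryo, had lower means in iKO. It measured 23.3, 20.04, 14.8, 10.4, 20.5 and 22.4 CPM in control libraries 1 to 6. In iKO libraries 1 to 6 it measured 13.6, 10.5, 12.1, 9.36, 12.4 and 7.25 CPM. The groups overlapped through control 4, which lay below 4 of the 6 iKO libraries. The means were 18.5 ± 4.96 and 10.9 ± 2.32 CPM, so iKO held 58.5% of the control level. The log2 fold change was -0.82 ± 0.18 (SE; 95% interval -1.21 to -0.43). Aldh1a2 was not past the threshold in edgeR over all 12 libraries. It was past it without control 4 (-0.92), with no filter on low counts (-0.82) and with DESeq2 (-0.82), which called 2.04% of all genes.

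Aldh1a2 varied with the meningeal markers. All 15 markers of that list had counts and none was at 0 in any library. Their summed level ran from 881 to 2078 CPM in controls and from 536 to 988 CPM in iKO, with control 4 the only control inside the iKO range. All 15 had a negative log2 fold change, with a median of -0.91 against 0.00 over all genes tested, and 4 of them fell past the threshold, namely Slc22a6, Slc22a8, Slc13a4 and Ranbp3l. Within the groups, after the group means were removed, the log2 level of Aldh1a2 and the mean log2 level of the list had a Pearson r of 0.899 over the 12 libraries (permutation p = 0.00062) and a Spearman rho of 0.664 (permutation p = 0.0297). Adjusted over the 117 pairs of a member with a marker list, these p-values were 0.0725 and 0.591. Without control 4 and iKO 6, the libraries farthest from the median of the list, r was 0.684. It was 0.91 in the 6 controls alone and 0.886 in the 6 iKO alone, where iKO 6 lay apart from the others (855 to 988 CPM). Other lists had a high r with Aldh1a2 too, likewise not under 0.05 once adjusted. With satellite glia r was 0.836 (permutation p = 0.00414) and rho 0.671 (permutation p = 0.0291). With choroid plexus r was 0.789 (permutation p = 0.00306) and rho 0.587 (permutation p = 0.0469). Over the 117 pairs both r adjusted to 0.121 and both rho to 0.591. The median log2 fold changes of these lists were 0.04 and -0.79. In the 6 controls alone, r was 0.999 with satellite glia, 0.739 with choroid plexus and 0.915 with central glia. In the 6 iKO alone, it was 0.471, 0.938 and -0.272 in the same order.

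Set against the meningeal markers, whose sum was itself lower in iKO, the levels of Aldh1a2 in the groups overlapped. A gene that falls less than that sum comes out higher on this scale, so nothing is read from the ratio. For every 1000 CPM of meningeal markers, controls held 11.7 ± 1.61 CPM of Aldh1a2 and iKO held 13.1 ± 1.74 CPM (SD, n = 6 each). The control values ran from 10.4 to 14.8 and the iKO values from 10.7 to 15.9. Aldh1a3 had an r of 0.273 with the same list (permutation p = 0.399), and a rho of 0.238 (permutation p = 0.477), adjusted 0.878 and 0.932 over the 117 pairs. Without control 4 and iKO 6 its r was 0.132. Of the 13 marker lists, Aldh1a3 varied most with macrophages, at an r of 0.745 (permutation p = 0.0072) and a rho of 0.594 (permutation p = 0.0559), adjusted 0.14 and 0.591 over the 117 pairs. That r was 0.624 in the controls, 0.888 in the iKO and 0.761 without control 6 and control 2. All 7 macrophage markers had counts in every library and a negative log2 fold change, with a median of -0.32 and none past the threshold, whereas that of Aldh1a3 was positive. Their summed level ran from 133.5 to 230.7 CPM in controls and from 117.7 to 182.2 CPM in iKO, and their part in the Aldh1a3 difference was not tested. In whole ganglia, fewer cells of a type and less RNA per cell cannot be told apart. The part of the meningeal markers in the Aldh1a2 difference was not tested.

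**Figure D3:**
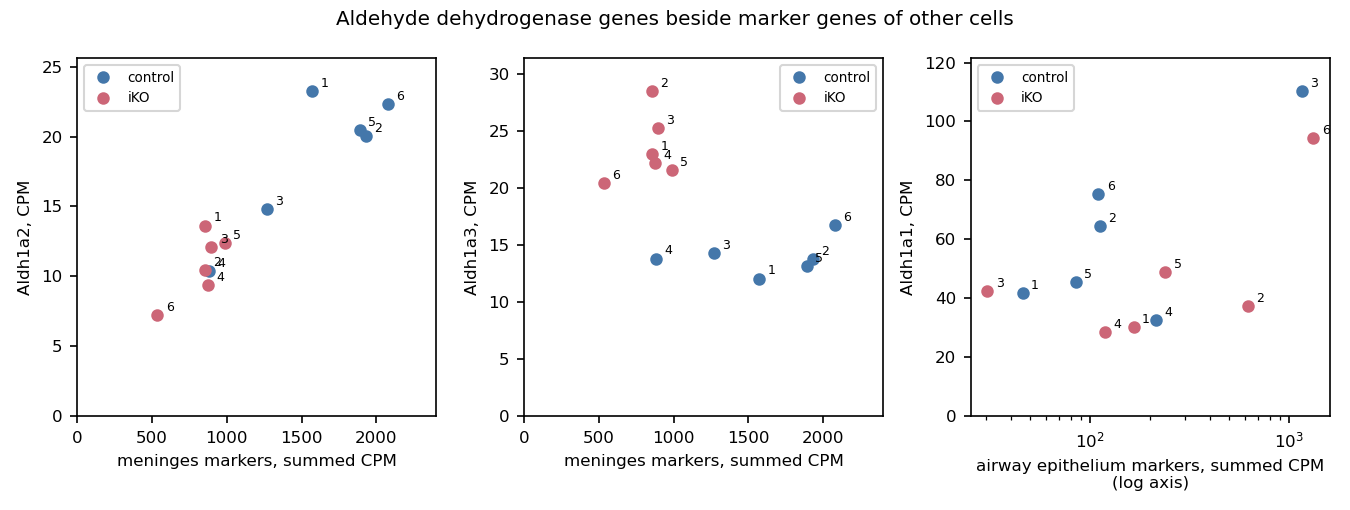
Aldh1a2 (left) and Aldh1a3 (middle) in CPM against the summed CPM of 15 meningeal markers, and Aldh1a1 (right) against the summed CPM of 12 airway epithelium markers on a log axis. Each point is 1 library with its replicate number. Aldh1a2 climbs with the meningeal sum in controls. In iKO, iKO 6 is lowest in both, at 536 CPM of markers, and the others lie close together at 855 to 988 CPM. The Aldh1a3 values of the groups do not overlap, and Aldh1a1 peaks in control 3 and iKO 6, at 110 and 94.4 CPM.

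The genes whose level varied most like Aldh1a2 within the groups, over 12 libraries and 15508 genes of at least 1 CPM, were Slc6a20a (r = 0.942), Slc22a6 (0.942), Slc6a12 (0.937), Atp6v0a2 (0.937) and Slc13a3 (0.925). Slc22a6 encodes an organic anion transporter and is itself on the meningeal list. For Aldh1a3 they were Tlr1 (0.923), Cdk11b (0.877), Gkap1 (0.873) and Rnf144b (0.867), and for Cyp26b1 Abhd4 (0.882), Il6st (0.875), Lamc1 (0.866), Fam13c (0.864) and Slc13a4 (0.863). None of these is another of the 9 genes. Among the members themselves the closest pair was Aldh1a2 and Cyp26b1, at 0.693, although their log2 fold changes had opposite signs.

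Cyp26b1 varied with several marker lists inside the groups. Its r was 0.686 with the pituitary list (permutation p = 0.0223; rho 0.65, permutation p = 0.0371), and 0.416 without iKO 3 and control 2. With the meningeal list r was 0.682 (permutation p = 0.0196; rho 0.573, permutation p = 0.0692), and 0.363 without control 4 and iKO 6. With the list of myelinating Schwann cells r was 0.615 (permutation p = 0.0381; rho 0.636, permutation p = 0.035), and 0.678 without control 3 and control 6. Over the 117 pairs the adjusted p-values of r were 0.326, 0.326 and 0.448, and that of each rho was 0.591. The meningeal markers all had negative log2 fold changes, opposite in sign to that of Cyp26b1. The 8 Schwann cell markers summed to 7542 to 12837 CPM in controls and 8972 to 11386 CPM in iKO, with a median log2 fold change of 0.19, and 1 of them, Pmp22, rose past the threshold. The 5 pituitary markers tested had a median of 0.03 and none passed. The part of these lists in the Cyp26b1 difference was not tested.

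With the airway epithelium list the r of Cyp26b1 was -0.83 (permutation p = 0.00087) and its rho -0.93 (permutation p = 0.00017), adjusted over the 9 members to 0.00783 and 0.00153. Without iKO 6 and control 3, the farthest libraries, r was -0.857. The summed level of that list ran from 45.9 to 1162 CPM in controls and from 30.5 to 1330 CPM in iKO, so the groups overlapped, and 12 of its 12 genes had counts, with Cldn4 at 0 in some libraries. Of its genes 11 were tested, 9 above and 2 below 0, with a median log2 fold change of 1.075 and none past the threshold. That median was positive, as was the log2 fold change of Cyp26b1, although r was negative. The list was written after the values had been seen, and its p-values were not adjusted together with those of the other lists. These p-values are therefore a description and no test of the relation. With control 3 and iKO 6 left out the log2 fold change of Cyp26b1 was 0.71, and it was no longer past the threshold. The part of the airway markers in the difference was not tested beyond that.

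Aldh1a1 encodes the third retinaldehyde dehydrogenase of the family and was the most variable of the 9 genes. Controls 1 to 6 measured 41.9, 64.5, 110, 32.6, 45.4 and 75.3 CPM, and iKO 1 to 6 measured 30.3, 37.3, 42.3, 28.6, 48.8 and 94.4 CPM. The ranges overlapped almost fully, and control 3 and iKO 6, the libraries highest in airway epithelium genes, were the highest of their groups. The log2 fold change was -0.34 ± 0.313 (SE; 95% interval -1.01 to 0.34), and -0.43 in the tamoxifen-injected animals. Aldh1a7, a neighbouring gene with a nearly identical product, stood at 5.09 ± 0.927 CPM in controls and at 6.21 ± 0.802 CPM in iKO. Reads of such copies can be split between them, so both values are uncertain.

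Rdh10 encodes the retinol dehydrogenase that supplies retinaldehyde. It measured 9.95, 9.76, 8.15, 10.5, 9.75 and 10.3 CPM in controls 1 to 6 and 10.5, 11.5, 9.80, 9.74, 11.5 and 14.3 CPM in iKO 1 to 6. Of the iKO values 3 exceeded every control and the other 3 lay within the control range. The log2 fold change was 0.21 ± 0.103 (SE; 95% interval -0.01 to 0.44).

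The 4 receptor genes differed less between the groups than Aldh1a3, Cyp26b1 or Aldh1a2 did, and each overlapped. Rxrg, an RXR found in a restricted set of tissues, measured 14.3, 15.1, 18.5, 15.7, 16.6 and 14.3 CPM in controls 1 to 6 and 14.2, 12.4, 13.2, 17.0, 12.5 and 12.1 CPM in iKO 1 to 6. In iKO, 5 of 6 libraries lay below the lowest control and iKO 4 lay inside the control range. Its log2 fold change was -0.20 ± 0.095 (SE), with a 95% interval from -0.40 to 0.01. Within the groups, Rxrg had an r of 0.779 with sensory neuron markers (permutation p = 0.00373) and a rho of 0.699 (permutation p = 0.0201). With nociceptor markers r was 0.757 (permutation p = 0.00624) and rho 0.65 (permutation p = 0.0325). Over the 117 pairs the r adjusted to 0.121 and 0.14, and each rho to 0.591. Without iKO 4 and control 6, r was 0.67 and 0.607. The part of these lists in the Rxrg difference was not tested. Rara had means of 9.16 ± 1.25 CPM (control) and 8.02 ± 1.24 CPM (iKO; n = 6 each), with a log2 fold change of -0.17 and an interval from -0.43 to 0.09. Rarg, the most abundant receptor of the 4 per length, measured 34.3 ± 3.0 and 32.0 ± 2.93 CPM, with a log2 fold change of -0.08 and an interval from -0.24 to 0.07.

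Rarb is the receptor gene best known for being switched on by retinoic acid itself. It measured 3.15, 2.48, 3.21, 2.701, 2.77 and 3.77 CPM in controls 1 to 6 and 3.55, 2.81, 3.25, 3.14, 2.99 and 3.45 CPM in iKO 1 to 6. All 6 iKO values fell inside the control range. The log2 fold change was 0.10 ± 0.133 (SE), with a 95% interval from -0.19 to 0.39. Exons of Rarb overlap those of Top2b on the opposite strand in the annotation, Top2b measured 97.7 CPM in controls, and the libraries do not mark strand, so reads of the genes cannot be told apart there.

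The receptors bind direct repeats of a 6-base motif, and the promoter sequences show where such a repeat stands. RefSeq promoters (250 bases before to 50 after a transcript start, build GRCm38.p6) were found for 7 of the 9 members, 13 promoters in all. A direct repeat of NGNTCA with 5 bases between the copies, searched on both strands, was in 1 of the 13, that of Rarb, and in 0.861% of 32851 promoters of the same length. Cyp26a1, the Cyp26 enzyme gene known in mouse for its induction by retinoic acid, has it too, and Cyp26b1 does not. The single motif AGGTCA was in 3 of the 13, in promoters of Rara, Rarg and Rxrg, and in 16.3% of all. The 3 promoters that contrast a breakdown gene without the repeat with genes that hold it are given 5′ to 3′ on the gene's strand, with the repeat in capitals: chr14:16575427-16575726, minus strand, for Rarb, chr19:37697558-37697857, plus strand, for Cyp26a1, and chr6:84593761-84594060, minus strand, for Cyp26b1.
Rarb: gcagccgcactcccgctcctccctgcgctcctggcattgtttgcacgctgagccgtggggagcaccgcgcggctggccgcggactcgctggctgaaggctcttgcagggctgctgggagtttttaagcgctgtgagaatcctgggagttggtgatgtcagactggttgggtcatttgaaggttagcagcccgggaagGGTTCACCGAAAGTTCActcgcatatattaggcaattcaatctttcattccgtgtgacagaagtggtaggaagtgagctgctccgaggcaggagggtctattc
Cyp26a1: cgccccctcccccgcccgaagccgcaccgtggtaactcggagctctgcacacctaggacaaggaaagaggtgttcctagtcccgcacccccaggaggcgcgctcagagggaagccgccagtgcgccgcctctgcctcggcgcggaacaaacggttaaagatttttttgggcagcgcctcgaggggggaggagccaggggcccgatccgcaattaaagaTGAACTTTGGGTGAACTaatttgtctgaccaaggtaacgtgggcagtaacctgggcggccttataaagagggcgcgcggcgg
Cyp26b1: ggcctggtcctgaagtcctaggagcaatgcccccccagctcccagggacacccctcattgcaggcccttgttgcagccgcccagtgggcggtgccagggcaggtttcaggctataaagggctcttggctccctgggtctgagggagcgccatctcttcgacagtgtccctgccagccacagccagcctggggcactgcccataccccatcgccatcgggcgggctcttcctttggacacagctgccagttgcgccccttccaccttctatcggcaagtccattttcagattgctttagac
A match to these letters is a description of the window and not a binding site.

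Neither gene with the repeat stood apart between the groups. Rarb is given above. Cyp26a1 had at most 12 reads in any library and was not tested. Controls held 0.394 ± 0.208 CPM, from 0.207 to 0.741, and iKO 0.251 ± 0.109 CPM, from 0.0759 to 0.385, where 3 counts in a library correspond to 0.124 to 0.227 CPM. Cyp26c1, the remaining Cyp26 gene, had means of 0.235 ± 0.103 CPM (control) and 0.412 ± 0.114 CPM (iKO) on at most 11 reads and was not tested either. Cyp2s1, another P450 able to oxidise retinoic acid, had a log2 fold change of -0.03 ± 0.249 (SE), and 0.16 without control 3.

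Beyond the members, 59 further retinoid genes were followed in 5 lists, and 43 passed the filter on low counts. None of the 43 passed the threshold in either direction in edgeR, where 0.379% of all genes did, and 5 had an unadjusted p under 0.05, against 10.9% of all genes. With DESeq2, Rbp4 passed among the genes named here. The median log2 fold change of the 43 was -0.03, against 0.00 over all genes tested, with 19 above and 24 below 0.

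The carriers and uptake genes held 4 of those 5. Rbp4, which carries retinol in blood, had means of 4.29 ± 1.12 CPM (control) and 2.46 ± 0.728 CPM (iKO; n = 6 each). On the log2 scale the difference was -0.84 ± 0.219 (SE; edgeR adjusted p = 0.131). Crabp2, which hands retinoic acid to its receptors, measured 6.25 ± 2.06 and 3.77 ± 0.985 CPM (-0.76 ± 0.239; edgeR adjusted p = 0.235). Stra6, the membrane receptor that takes up retinol and chosen here after its values were seen, measured 8.97 ± 2.58 and 6.43 ± 1.87 CPM (-0.55 ± 0.196; edgeR adjusted p = 0.313). Fabp5, a fatty acid carrier that also binds retinoic acid, was the most abundant of the list by CPM, with 65.0 ± 3.94 and 70.2 ± 4.01 CPM (0.11 ± 0.0517; edgeR adjusted p = 0.471). Lpl, a lipase, had a log2 fold change of 0.09 ± 0.216.

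Crabp2, Rbp4 and Stra6 varied with the meningeal markers within the groups. With group means removed, the Pearson r over 12 libraries was 0.881 for Crabp2, 0.844 for Rbp4 and 0.751 for Stra6, and the Spearman rho was 0.881, 0.769 and 0.748. The permutation p-values of r, adjusted over the 9 carriers tested, were 0.00333, 0.0122 and 0.0168, and those of rho were 0.00621, 0.021 and 0.0263. Without control 4 and iKO 6, r was 0.704, 0.607 and 0.879 in the same order. Rlbp1, of the same list and named after its values were seen, had an r of 0.718 and a rho of 0.636. Its permutation p-values, adjusted likewise, were 0.0315 and 0.0686, and its r was 0.503 without those libraries. Its log2 fold change was 0.01. For every 1000 CPM of meningeal markers, Crabp2 stood at 3.87 ± 0.423 CPM (controls) and 4.48 ± 0.648 CPM (iKO). Rbp4 stood at 2.72 ± 0.456 and 2.97 ± 0.761 CPM, and Stra6 at 5.66 ± 0.745 and 8.01 ± 2.91 CPM. None of these means was lower in iKO on that scale, but the marker sum itself was (median 867 CPM, against 1731 CPM in controls). A gene that falls less than that sum comes out higher on this scale, so nothing is read from these ratios. This set of correlations was chosen after the Aldh1a2 values were seen.

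Among the other dehydrogenases and reductases, 15 of 22 genes were tested and 8 were above and 7 below 0. The most abundant ones by CPM, Adh5, Rdh11 and Dhrs7, were nearly level, with log2 fold changes of -0.02 ± 0.0396, -0.03 ± 0.0455 and 0.04 ± 0.0421 (SE). Adh7, an alcohol dehydrogenase of epithelia that oxidises retinol, stood at 24.8 CPM in iKO 6 and at 7.16 CPM in control 3, against 0.631 to 2.67 CPM elsewhere. Dhrs9, a retinol dehydrogenase, measured 39.5 CPM in iKO 6 against 0 to 6.73 CPM elsewhere. Their log2 fold changes were 1.38 ± 0.696 and 1.63 ± 0.988, and -0.06 for each without iKO 6.

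Of 11 further receptor and coregulator genes, all tested, 3 were above and 8 below 0, with a median of -0.08. The corepressor gene Ncor1 had means of 167 ± 6.65 and 170 ± 10.7 CPM in control and iKO, and the coactivator gene Ncoa2 98.5 ± 5.46 and 96.1 ± 5.39 CPM. Nr2f2 and Ncoa1 had log2 fold changes of -0.10 ± 0.0544 and -0.08 ± 0.0489. Nrip1, whose product binds liganded nuclear receptors, stood at -0.11 ± 0.0571 (edgeR adjusted p = 0.538). Of 12 genes known to respond to retinoic acid in other settings, 7 were tested, 3 above and 4 below 0, with a median of -0.04. Zfp703 differed by -0.19 ± 0.0841 on the log2 scale (edgeR adjusted p = 0.437), Rarres2 by 0.12 ± 0.0713 (edgeR adjusted p = 0.587) and Meis1 by -0.09 ± 0.0745 (edgeR adjusted p = 0.727). Meis2, Rarres1 and Nav2, the most abundant of that list by CPM, had values of 0.03, -0.04 and -0.04.

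**Figure D4:**
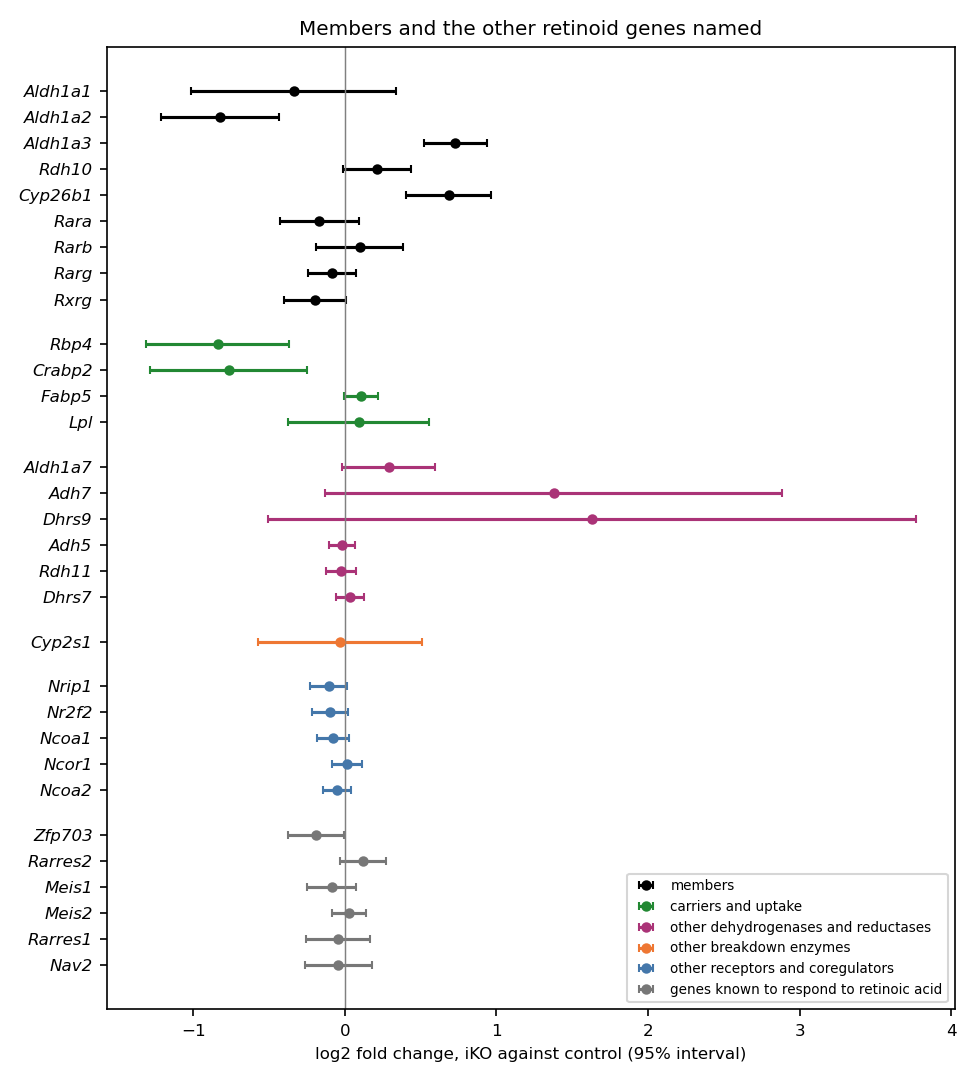
Log2 fold change of iKO against control with its 95% interval for the 9 members and the other retinoid genes named, coloured by list. Aldh1a3 (0.73) and Cyp26b1 (0.68) lie to the right of 0, Aldh1a2 (-0.82), Rbp4 (-0.84) and Crabp2 (-0.76) to the left, and the intervals of Adh7 and Dhrs9 are the widest.

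The next 3 comparisons did not enter the choice of genes. The first asks whether the effect differed between the replicate sets. For Aldh1a3 the log2 fold change was 0.87 ± 0.112 (SE) in replicates 1 to 4 and 0.49 ± 0.148 in replicates 5 and 6, with a difference of -0.38 ± 0.185 (unadjusted p = 0.0655 and adjusted p = 0.9999 in edgeR). Cyp26b1 had 0.86 ± 0.148 and 0.35 ± 0.203, with a difference of -0.51 ± 0.251 (unadjusted p = 0.0648 and adjusted p = 0.9999 in edgeR). The interval of the difference ran from -0.79 to 0.03 for Aldh1a3 and from -1.06 to 0.04 for Cyp26b1. Aldh1a2 had -0.70 ± 0.179 and -1.12 ± 0.245. The unadjusted p of the other 7 members ran from 0.112 to 0.672. No member and no other gene passed in edgeR (0%), where 568 genes, 3.41%, had an unadjusted p under 0.05, and DESeq2 called 5 genes, 0.0301%, in this comparison.

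The second asks whether the effect differed between the sexes. Aldh1a3 measured 12.9 ± 1.19 CPM in 2 control females and 25.6 ± 2.8 CPM in 3 iKO females, and 14.5 ± 1.56 CPM in 4 control males and 21.4 ± 0.9 CPM in 3 iKO males. The log2 fold change was 0.98 ± 0.127 in females and 0.56 ± 0.102 in males, a difference of -0.42 ± 0.162 with an interval from -0.78 to -0.07 (unadjusted p = 0.0226 and adjusted p = 1 in edgeR). It was the only member with an unadjusted p under 0.05, against 1.91% of all genes, and it failed the adjustment. All 5 females were in replicates 1 to 4, and 4 of the 7 males were in replicates 5 and 6, where the log2 fold change of Aldh1a3 was 0.49. The fit had no term for the replicate set, so the difference between sexes and that between sets cannot be fully told apart. The other 8 members had unadjusted p-values from 0.402 to 0.943. Neither edgeR nor DESeq2 called any gene (0%), with 318 genes at an unadjusted p under 0.05 in edgeR.

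The third compares males with females across both groups, in which 18 genes passed in edgeR, 0.108%, and no member did (DESeq2 called 0.326%). Cyp26b1 was lower in males by a log2 difference of -0.32 ± 0.13 (unadjusted p = 0.0308 and adjusted p = 0.469 in edgeR), with 5.89 ± 0.922 CPM in control males and 7.48 ± 0.372 CPM in control females. Aldh1a2 had a log2 difference of -0.33 ± 0.181 (unadjusted p = 0.0907 and adjusted p = 0.539 in edgeR). The other 7 members had unadjusted p-values from 0.157 to 0.638, and 10.2% of all genes had one under 0.05. This fit too had no term for the replicate set, so sex and set cannot be fully told apart. Cyp26b1 averaged 11.8 CPM in iKO of replicates 1 to 4 and 8.48 CPM in iKO of replicates 5 and 6. In controls it averaged 6.3 and 6.67 CPM.

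**Figure D5:**
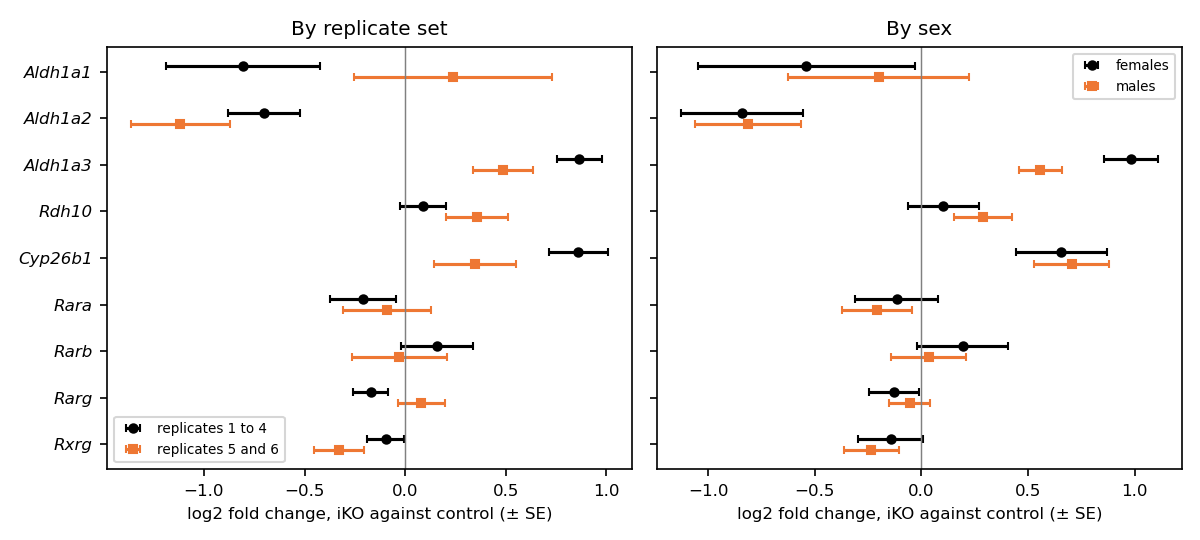
Log2 fold change of iKO against control with its SE for the 9 members, on the left in replicates 1 to 4 and in replicates 5 and 6, and on the right in females and in males. Aldh1a3 and Cyp26b1 are positive in each subset, which was fixed in advance because their iKO and control values did not overlap. The smaller Aldh1a3 values are in replicates 5 and 6 (0.49) and in males (0.56). Aldh1a2 is negative in each subset.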

How the data were processed

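Raw counts of reads per gene were deposited by the authors, 1 file per library, with no normalization. TruSeq libraries of polyadenylated RNA without strand marking were sequenced, per the labels' protocols. Build GRCm39, featureCounts 2.0.1, STAR 2.7.8a and bcl2fastq 2.20.0.422 are listed in the submitters' processing notes; which annotation release and counting options were used is not given in the sources.

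Symbols for 52083 of 55416 identifiers, exon lengths and promoters came from GRCm38 tables, an older build. Identifiers with no symbol held 0.274% of counts. Counts were tested with edgeR 4.0.16 (R 4.3.3): filterByExpr by group, TMM, quasi-likelihood test with sex as a covariate, Benjamini-Hochberg adjustment over 16637 genes at 0.05. Correlations used log2(CPM + 0.5) with group means removed and 100000 permutations within groups. Their p-values were added to a plan that gave the correlations as a description. The members and lists were chosen with earlier results of these data known. In each list, the genes past the threshold are named, or else the 3 with the smallest p, and the 3 most abundant; some genes this names are not reported here. In comparisons that did not choose the members, those with an unadjusted p under 0.1 are named. 
On simulated counts over 16637 genes, the comparison of iKO with control called 81% of 2-fold and 59% of 1.5-fold changes, with 5 false calls. The shares were 48% and 16% for the replicate-set difference, 55% and 14% for the interaction with sex, and 82% and 65% for males against females. The chi-square per degree of freedom was at least 7.16 in every pair of libraries of a group, so no library was counted as a repeat of another. Floors of 3 counts cover counting error only.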

Additional observations from a re-analysis of the deposited data

Results flagged for a closer look

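In 14 of 70 groups of 6 libraries (35 genes, 2 groups each), 1 library lay far from the other 5, its gap to the nearest exceeding 0.625 of the range. Chance alone flags about 1 in 20 groups. In iKO 6, Aldh1a1 measured 94.4 CPM (others 28.6 to 48.8), Adh7 24.8 (others 0.972 to 2.67), Dhrs9 39.5 (others 0 to 4.53) and Cyp2s1 11.8 CPM (others 3.95 to 6.72). In control 3, Adh7 measured 7.16 CPM (others 0.631 to 1.98), Cyp2s1 13.0 (others 4.84 to 6.54), Rara 11.6 (others 8.16 to 9.15) and Rdh10 8.15 CPM (others 9.75 to 10.5). These are the libraries highest in airway epithelium genes, and the part of that tissue was not tested.

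Rbp4 measured 3.85 CPM in iKO 3, against 1.85 to 2.51 CPM in the other iKO libraries. Fabp5 measured 78.2 CPM and Cyp26c1 0.192 CPM in iKO 4, against 67.7 to 69.5 CPM and 0.401 to 0.514 CPM in the others. Lpl measured 21.6 CPM in iKO 5, against 7.57 to 12.4 CPM. Rdh11 measured 61.5 CPM in control 1, against 52.6 to 55.2 CPM, and Dhrs7 39.5 CPM in control 2, against 42.3 to 43.9 CPM.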

How the results depend on the processing

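Over the 12 fits that left out 1 library, the count of genes for iKO against control ran from 23 to 88 (63 with all; 27, 23, 33 and 29 when controls 1, 2, 3 and 5 were dropped in turn, and 24, 32 and 35 when iKO 1, 5 and 6 were), for the replicate-set difference from 0 to 15 (15 without iKO 6), for the sex difference of the effect it was 0 throughout, and for male against female it ran from 11 to 15 (18 with all). With no filter on low counts the counts were 138 for iKO against control, 578 for the replicate-set difference and 33 for the sexes. With DESeq2 they were 332, 5 and 50. For iKO against control the count was 15 with a replicate block and 28 in tamoxifen-injected animals, where that for the sexes was 10. With control 3 and iKO 6 left out, chosen after the data were seen, the counts were 23, 5 and 10. With control 6, iKO 3 and iKO 5 left out, the libraries highest in lymphocyte, pituitary and muscle genes, also chosen then, the count for the sexes was 9. The cause was not tested. The labels do not say whether shared replicate numbers pair the libraries. Same-numbered libraries correlated from -0.456 to 0.3, above 0.1 in 4 of 6 pairs, and none correlated best with its own number. With so few libraries of mixed tissue content, these values cannot settle whether the numbers are pairs.

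Every member kept the sign of its log2 fold change of iKO against control under every alternative run. For Aldh1a3 and Cyp26b1, whose groups did not overlap, leaving out libraries could not change the sign. Adh7 (-0.057) and Dhrs9 (-0.061) turned negative without iKO 6, within ranges up to 1.90 and 2.04 when 1 library was left out. Cyp2s1 ranged from -0.27 to 0.16 and turned positive with the replicate block (0.041) and without control 3 (0.16), iKO 2 (0.03), iKO 4 (0.09) or iKO 5 (0.06). Aldh1a3 was not past the threshold with the replicate block. Cyp26b1 was not past it with the replicate block (0.60), with no sex covariate (0.74), in tamoxifen-injected animals (0.78) or with either set of libraries left out after the data were seen. Rbp4 was past it with DESeq2. Levels on total counts differed from TMM levels by less than 1 SD in all 18 group means. Rarb, Cyp26a1 and Cyp26c1 are limited by depth.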

Other observations

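Levels of Rxrg and Rdh10 ran against each other within the groups, with an r of -0.74 over the 12 libraries after group means were removed, the lowest of the 36 pairs of members, given as a description. The genes most like Rxrg within the groups were Nacc2 (r = 0.963) and Opa3 (0.96), and those most like Aldh1a1 were Prdx6 (0.97) and Tst (0.954), Prdx6 measuring 125 CPM in controls. For Rdh10 they were Cops7b (0.939) and Zfp54 (0.9), for Rara Ppp1r26 (0.927) and Pde1b (0.926), for Rarb Myc (0.892) and Nell1 (0.868), and for Rarg Itpripl1 (0.869) and Tctex1d2 (0.869).

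Adh7 followed the airway epithelium list within the groups (r = 0.946, permutation p = 2e-05, and rho = 0.951, permutation p = 4e-05). The adjusted p-values were 6e-05 and 0.00012 over 3 enzyme genes, Adh7, Dhrs9 and Cyp2s1. Without iKO 6 and control 3 r was 0.841. For Dhrs9 r was 0.885, and 0.744 without them, and for Cyp2s1 0.752 and -0.116. The list was written after these values were seen, and the 3 genes are among those flagged above in these libraries. Their p-values are therefore a description and no test of the relation. Aldh1a1 had an r of 0.68 (permutation p = 0.028) and a rho of 0.406 (permutation p = 0.212) with the same list, adjusted 0.124 and 0.382 over the 9 members, and an r of -0.066 without those 2 libraries, so that relation rests on them.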
